A study of Arabidopsis thaliana with 24 samples.

Results

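Xyloglucan endotransglucosylase/hydrolases (XTHs) of Arabidopsis thaliana were followed across 24 root transcriptomes. The family was taken as the 33 loci named XTH1 to XTH33, out of 32833 genes in the count table. Membership followed gene name, and the family was chosen with earlier results of these data known. All 33 loci were in the table. In the usual numbering of the family, 11 members (XTH1 to XTH11) form clade I, 15 (XTH12 to XTH26) clade II and 7 (XTH27 to XTH33) clade III.

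All libraries came from roots of wild-type Col-0 seedlings on vertical agar plates of MS medium adjusted to 6 or 60 mM KNO3, harvested on day 6 after stratification. The 4 long-exposure groups grew throughout on plates with mock treatment or with 2.5 nM isoxaben, a herbicide that blocks cellulose synthesis, at each KNO3 level. The 4 shift groups grew on a polyester mesh and were moved on day 5 to plates of the same KNO3 level with mock or 2.5 nM isoxaben. Each of the 8 groups held 3 libraries; whether these came from separate plates or cultures is not stated, so p-values measure the spread between these libraries. Roots were taken whole, and KNO3 changes nitrate, potassium and osmolarity together.

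XTH enzymes act on xyloglucan, the main hemicellulose of the primary wall in most flowering plants, which coats and bridges cellulose microfibrils. They cut a xyloglucan chain and join the new end either to another xyloglucan chain, which is the endotransglucosylase reaction, or to water, which is hydrolysis. In roots the reaction is known from the elongation zone and from growing root hairs. Single members are also known as fast responders to touch and hormones: XTH22 was first described as the touch gene TCH4. Biochemically, hydrolysis in Arabidopsis is known from XTH31 and its close relative XTH32, and most other members tested act as transglucosylases.

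The catalytic stretch of the coding sequence is shown for 9 members on which the results turn, because it is the feature by which the family is recognised. Each stretch is 27 bases of the annotated coding sequence, 5′ to 3′, from RefSeq annotation of TAIR10.1. Capitals mark the codons of the 3 acidic residues of the active site, of which the first is the nucleophile.
XTH12: tgggatGAGattGATttcGAGttcttg
XTH13: tgggatGAAatcGACttcGAGttcttg
XTH14: tgggatGAGattGACttcGAGtttttg
XTH26: cacgatGAGataGACttcGAGttccta
XTH22: tgggacGAGataGATttcGAGttttta
XTH23: tgggacGAGattGACtttGAGttcttg
XTH16: cacgacGAGataGACtttGAGtttctt
XTH21: tgggacGAGataGATttcGAGtttttg
XTH31: cacgatGAGgtcGATatcGAGtttcta
A stretch of this pattern was found in 32 of the 33 coding sequences, all but that of XTH11, and all 32 differed from each other in at least 1 base. XTH12 and XTH13, both on chromosome 5, were 89.7% identical over their coding sequence, and their longest identical run was 47 bases. The closest pair was XTH17 and XTH18, at 92.2%. Of the 50-base windows of their exons, none recurred elsewhere in the genome for XTH12, XTH13, XTH14, XTH22 and XTH23, against 0.305% for XTH26, 1.70% for XTH18, 1.77% for XTH19 and 7.82% for XTH21. How reads that match several genes were counted is not given in the sources used here. Values of XTH17 (0.182% of windows recurring), XTH18, XTH19, XTH21 and XTH26 are uncertain to that extent.

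Several members lie close together. On chromosome 5 the order XTH12, XTH13, XTH25 and XTH22 spans chr5:23300321-23308680 of TAIR10.1, all on the minus strand, with 1 other protein-coding gene between XTH12 and XTH13. On chromosome 4 XTH23 (chr4:13128394-13129927) ends 363 bases before XTH14 (chr4:13130291-13131860), both on the plus strand. XTH24, XTH18 and XTH19 follow each other at chr4:14819192-14830224 on the minus strand. XTH26 stands apart from these at chr4:14244290-14246037, on the plus strand. The annotated span of XTH15 (chr4:8137020-8138392, minus strand) overlaps AT4G14120 on the plus strand, and whether counting used strand is not stated, so its counts are uncertain.

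Library totals ran from 18902538 to 20519913 counts, so 3 counts, the most that a count of 0 allows, correspond to 0.143 to 0.167 CPM (counts scaled by library size and TMM). These limits, like the counting intervals given later, cover counting error only. Counts of replicates differed by more than counting noise in all 24 replicate pairs, with a chi-square between 2.64 and 21.7 per degree of freedom. The highest value was that of replicates 1 and 2 of long-exposure isoxaben at 60 mM. All 10 root tissue markers examined, including SHR, SCR and WER, had counts in every library. The summed level of 20 photosynthesis genes, which mark shoot tissue, ranged from 179 to 866 CPM.

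Of the 33 members, 27 had enough counts to be tested: 7 in clade I, 14 in clade II and 6 in clade III. XTH1 and XTH3 had no count in any library, which allows a level of up to 0.167 CPM in the library where that limit is highest. XTH2 and XTH25 reached at most 1 and 4 counts in a library, XTH6 at most 4, and XTH29 at most 8. The tested members span several orders of magnitude, from XTH11, below 1.5 CPM in every library, to XTH31, at 565, 582 and 547 CPM in shift mock at 60 mM.

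**Figure D1:**
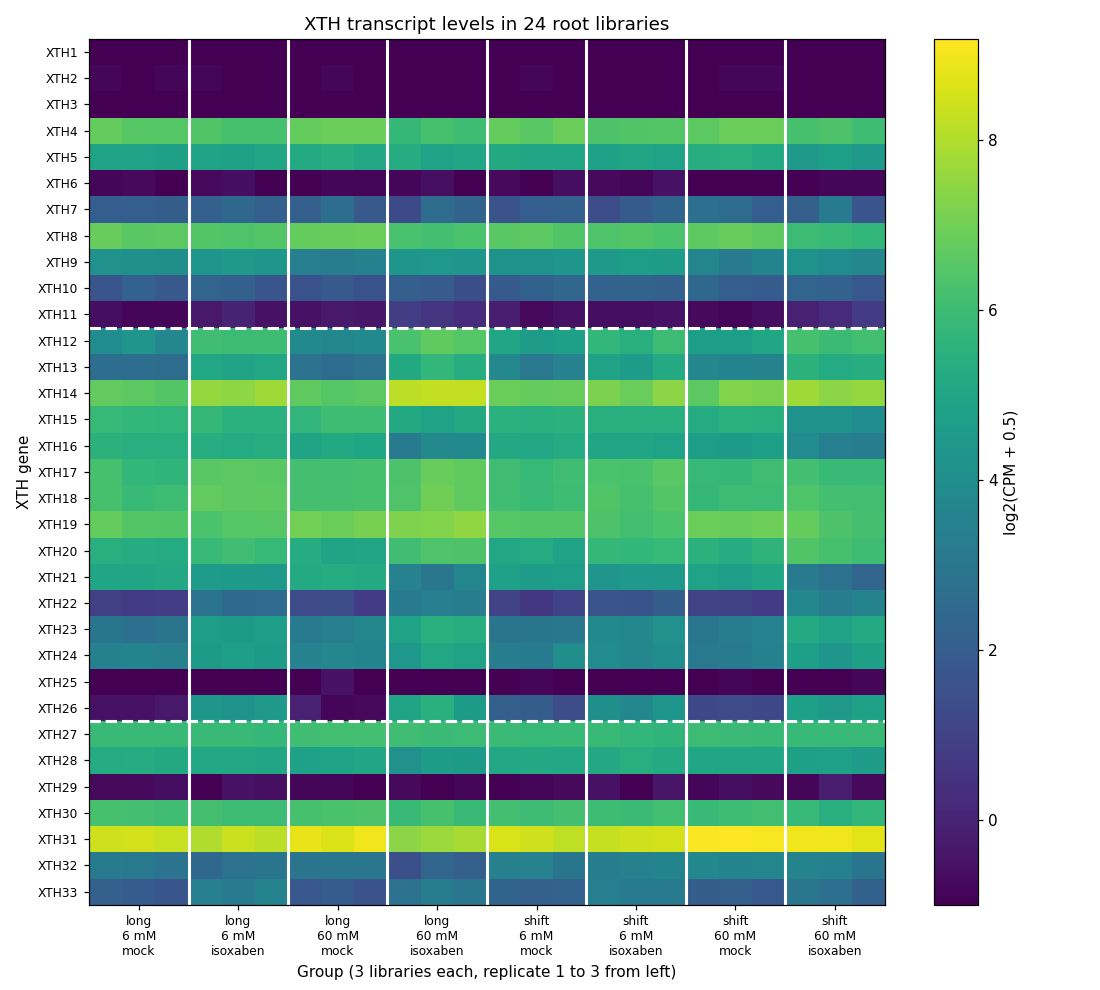
Levels of the 33 XTH genes (vertical axis, dashed lines between clades) in the 24 libraries (horizontal axis, 3 per group), as log2 of CPM plus 0.5. XTH31 is the brightest row outside long-exposure isoxaben at 60 mM, XTH26 is dark in the 6 long-exposure mock libraries, and XTH1 and XTH3 stay at the bottom of the scale.

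Levels of different genes were compared per kilobase of exon. XTH31 was the most abundant member on this scale in 7 of 8 groups. It stood at 249 ± 16.4 CPM per kilobase (SD, n = 3) in long mock at 6 mM, which was 25.7% of the family total, and at 405 ± 12.5 in shift mock at 60 mM, 34.8% of the total. In long-exposure isoxaben at 60 mM it came second, at 143 ± 20.9 CPM per kilobase or 11.6% of the family. XTH14 came first there, at 255 ± 7.83 CPM per kilobase or 20.7%, against 7.51% in the matching mock. Their ranges of level in that group did not overlap. In long mock at 6 mM, XTH8 (83.9 ± 8.22), XTH14 (83.7 ± 7.64) and XTH19 (70.7 ± 10.2 CPM per kilobase) followed XTH31, and these 3 did not differ beyond their spread.

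The make-up of the family changed more than its total. Summed over the family, CPM in long mock and isoxaben was 1302 ± 86.5 and 1502 ± 19.8 at 6 mM, and 1499 ± 64.5 and 1593 ± 133 at 60 mM. Clade II took up 579 ± 15.0 CPM in long mock at 60 mM and 1034 ± 97.5 in isoxaben. Clade III went the other way, from 638 ± 50.6 to 359 ± 34.2, and clade I from 282 ± 9.39 to 200.5 ± 4.16 CPM. None of the 3 clades' ranges overlapped between mock and isoxaben there. These sums follow abundant members: XTH31 carried most of the clade III fall, and XTH4 and XTH8 carried that of clade I. After the shift at 60 mM, clade II ranged from 523 to 611 CPM in mock to 669 to 825 in isoxaben, and clade I from 261 to 287 to 159 to 194.

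**Figure D2:**
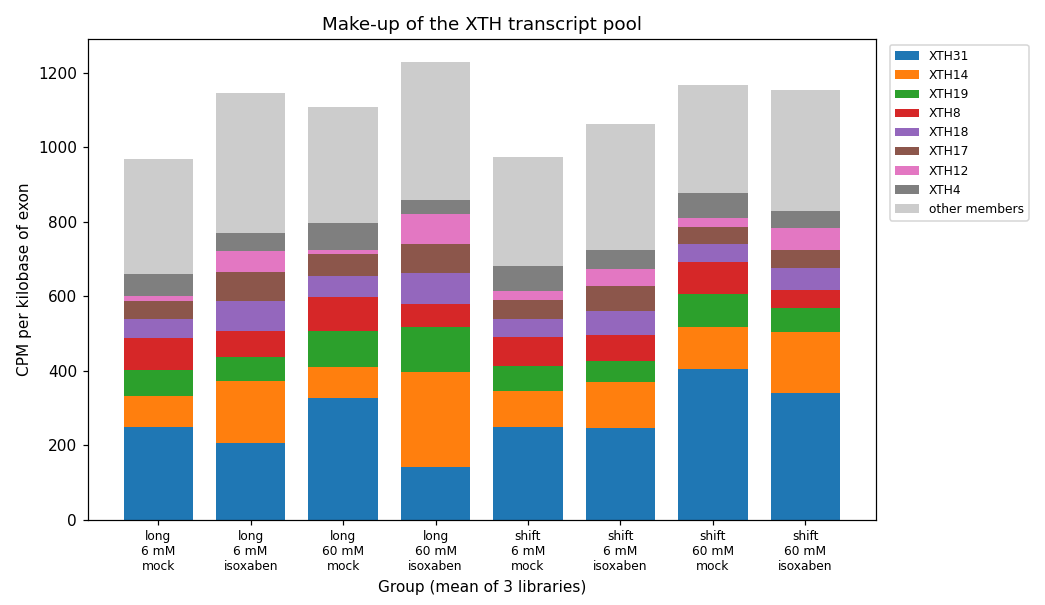
Stacked mean CPM per kilobase of exon (vertical axis) of 8 abundant XTH genes and all other members in each of the 8 groups (horizontal axis, n = 3 libraries each). The XTH31 segment is the largest in every group but long-exposure isoxaben at 60 mM, where XTH14 has 20.7% and XTH31 11.6% of the total.

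Isoxaben changed most of the tested family at 60 mM and a smaller share at 6 mM. Calls rest on edgeR's quasi-likelihood test at a Benjamini-Hochberg adjusted p under 0.05 over 20546 genes, from which every adjusted p below comes. Log2FC stands for the log2 fold change and SE for its standard error. Under long exposure at 6 mM, 13 of 27 members were called, 11 higher and 2 lower, against 5.69% of all genes tested (3.90% higher and 1.79% lower). At 60 mM the count was 23, 14 higher and 9 lower, against 31.9% (16.0% and 15.8%). After the shift, 7 members were called at 6 mM (background 0.949%, of which 0.628% higher and 0.321% lower) and 19 at 60 mM (12.9%), 11 higher (7.35%) and 8 lower (5.59%). All 7 calls at 6 mM were higher and none was lower in edgeR; at an unadjusted p under 0.05, 2 members were lower, and DESeq2 called 1. The median log2 fold change over tested members was 0.22, 0.32, 0.13 and -0.02 in these 4 effects in the same order, beside medians over all genes within 0.01 of 0.

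Counts by clade are given for long exposure at 60 mM, where 16.0% of all genes were higher and 15.8% lower; no test between clades was run. All 14 tested clade II members were called, 11 higher and 3 lower. Of the 7 tested clade I members 2 were higher and 2 lower, and of the 6 tested clade III members 1 was higher and 4 were lower. The median log2 fold change of tested members was 1.22 in clade II, -0.12 in clade I and -0.37 in clade III. In at least 1 of the 4 isoxaben effects, 14 members rose and 11 fell, with XTH19 in both counts. XTH12, XTH13, XTH20, XTH22, XTH23, XTH26 and XTH33 rose in all 4. Shares of all genes over the 4 effects together were not computed, so these counts have no background beside them.

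**Figure D3:**
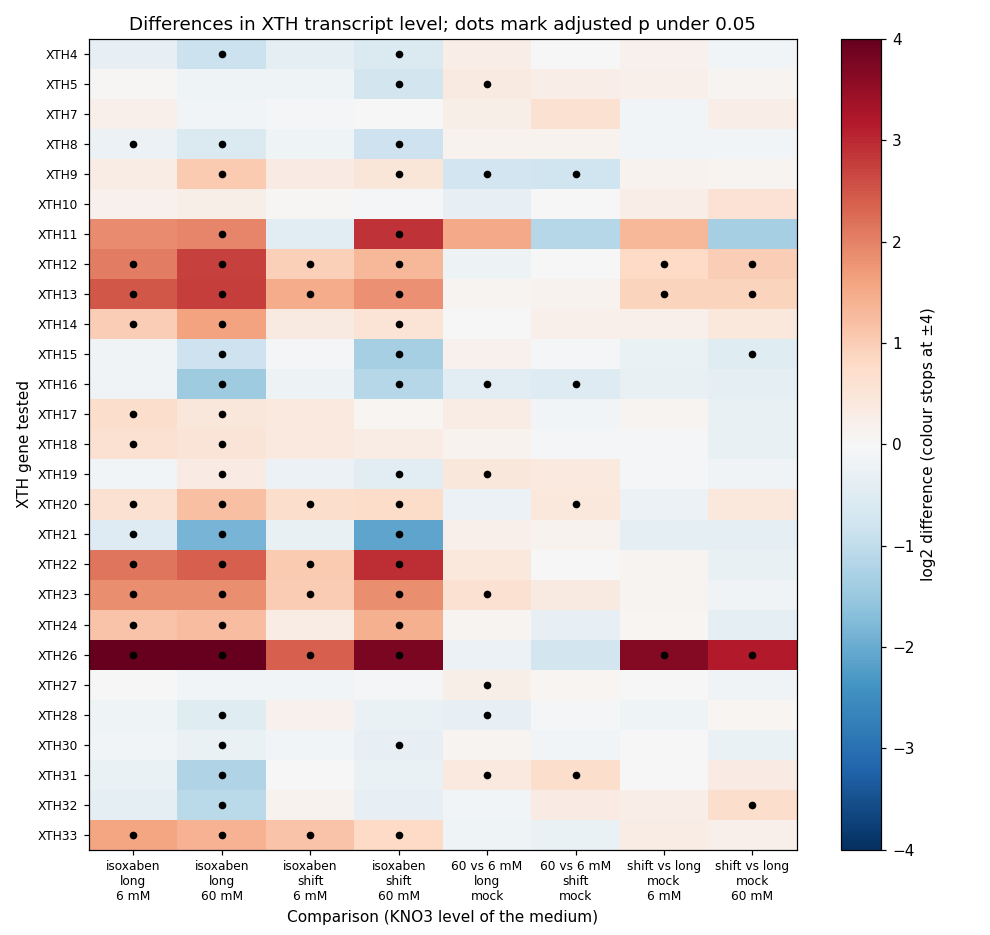
Log2 differences (colour, red for higher, blue for lower) of the 27 tested XTH genes (vertical axis) in the 4 isoxaben effects, the 2 KNO3 effects in mock libraries and the 2 comparisons of shift with long mock (horizontal axis). Dots mark an adjusted p under 0.05, and the row of XTH26 is red and dotted in all 4 isoxaben effects and in both shift comparisons.

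Of 4 members known from root hairs and the root epidermis, XTH12, XTH13 and XTH26 rose in all 4 isoxaben effects and XTH14 in 3. XTH26 (AT4G28850), whose enzyme acts in root hairs, had 0.207, 0.209 and 0.310 CPM in long mock at 6 mM and 20.7, 18.3 and 21.5 in isoxaben. At 60 mM it had 0.455, 0.0517 and 0.104 CPM in mock and 30.4, 43.5 and 23.3 in isoxaben (log2FC 7.25, SE 0.37, adjusted p 6.86e-12). The mock libraries of long exposure held 14 counts together at 6 mM and 12 at 60 mM, so the size of these rises is uncertain: the ratios were 83.4 (95% counting interval 49.5 to 153.0) and 157 (89.4 to 304), by an exact binomial interval. Shift libraries of XTH26 at 60 mM stood at 1.82, 2.05 and 1.82 CPM in mock and 26.7, 22.6 and 27.7 in isoxaben (log2FC 3.75, SE 0.26, adjusted p 1.92e-09). At 6 mM it went from 3.78, 3.52 and 2.18 to 16.4, 13.1 and 20.1 CPM (log2FC 2.38, SE 0.24, adjusted p 1.56e-05). All 12 isoxaben libraries lie between 13.1 and 43.5 CPM and none of the 12 mock libraries above 3.78.

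XTH13 (AT5G57540) rose in the same 4 effects, at higher counts. Its long-exposure values at 6 mM were 5.90, 5.96 and 5.63 CPM in mock and 34.1, 30.5 and 34.3 in isoxaben (log2FC 2.50, SE 0.18, adjusted p 1.25e-08). Those at 60 mM were 6.87, 5.53 and 6.56 and 36.4, 53.0 and 39.6 (log2FC 2.76, SE 0.18, adjusted p 9.95e-11). All 6 long mock libraries lay below 7 CPM and all 6 isoxaben libraries above 30. In the shift groups at 6 mM the values were 13.4, 8.02 and 10.8 CPM in mock and 28.3, 24.5 and 36.6 in isoxaben (log2FC 1.47, SE 0.17, adjusted p 3.45e-05), and at 60 mM 12.6, 11.4 and 11.2 and 46.1, 37.7 and 40.5 (log2FC 1.82, SE 0.16, adjusted p 5.03e-08). Mock and isoxaben did not overlap in either.

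XTH12 (AT5G57530), a close relative of XTH13, had 15.0, 19.4 and 12.6 CPM in long mock and 65.8, 62.7 and 63.8 in long isoxaben at 6 mM (log2FC 2.03, SE 0.16, adjusted p 1.13e-07). At 60 mM the values were 14.1, 12.1 and 14.2 and 77.0, 102 and 89.7 (log2FC 2.73, SE 0.17, adjusted p 1.29e-10). Every long isoxaben library was above every shift mock library, the highest of which was at 32.0 CPM. At 6 mM the shift took XTH12 from 32.0, 23.8 and 26.0 to 52.6, 42.5 and 63.0 CPM (log2FC 0.95, SE 0.15, adjusted p 0.00275). The shift at 60 mM gave 25.0, 24.8 and 31.1 CPM in mock and 74.0, 61.1 and 67.7 in isoxaben (log2FC 1.32, SE 0.15, adjusted p 3.53e-06). In a fit of only the 2 groups compared, the 6 mM shift calls of XTH12 and XTH13 were lost; over all alternatives their adjusted p ranged from 6.36e-08 to 0.084 and from 1.39e-16 to 0.0546.

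XTH14 (AT4G25820), a transglucosylase known from root hairs and the elongation zone, was abundant before treatment. Long mock and isoxaben libraries held 106, 97.9 and 88.6 and 193, 174 and 212 CPM at 6 mM (log2FC 0.98, SE 0.14, adjusted p 0.000124). At 60 mM they held 103, 90.3 and 98.5 and 287, 304 and 301 CPM (log2FC 1.61, SE 0.14, adjusted p 2.48e-08). The 3.06-fold rise at 60 mM separated the groups widely, with the 3 isoxaben libraries close together. In the shift groups at 60 mM the range was 97.9 to 151 CPM in mock and 172 to 211 in isoxaben (log2FC 0.53, SE 0.14, adjusted p 0.0125), a call lost without isoxaben replicate 1 and in a fit of the 2 groups alone (adjusted p from 0.000785 to 0.109 over alternatives). At 6 mM the shift ranges, 109 to 118 and 117 to 170.3 CPM, overlapped and the test was not passed (log2 fold change 0.35, adjusted p 0.379).

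A list of 10 root hair marker genes was followed beside these 4 members. Under long exposure 9 of the list were called higher at 6 mM, against 3.90% of all genes, and all 10 at 60 mM, against 16.0%. After the shift 1 was called higher at 6 mM (0.628% of all genes) and 5 at 60 mM (7.35%). None was lower in these 4 effects by edgeR (0 also at an unadjusted p under 0.05) or by DESeq2. The list's summed level in long mock and isoxaben was 686 to 857 and 1719 to 1800.2 CPM at 6 mM, and 582 to 748 and 2256 to 3802 at 60 mM. After the shift it was 764 to 967 and 1130.3 to 1936 CPM at 6 mM, and 776 to 1321 and 1401 to 1890.5 at 60 mM. These sums follow the abundant genes of the list. Its median log2 fold change was 0.87 at 6 mM and 1.56 at 60 mM under long exposure. The shift medians were 0.29 at 6 mM and 0.48 at 60 mM. No marker of the list was at 0 in any library. In RNA from whole roots, more cells of a type and more RNA per cell cannot be told apart, and the part of root hair cells in the XTH changes was not tested.

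**Figure D4:**
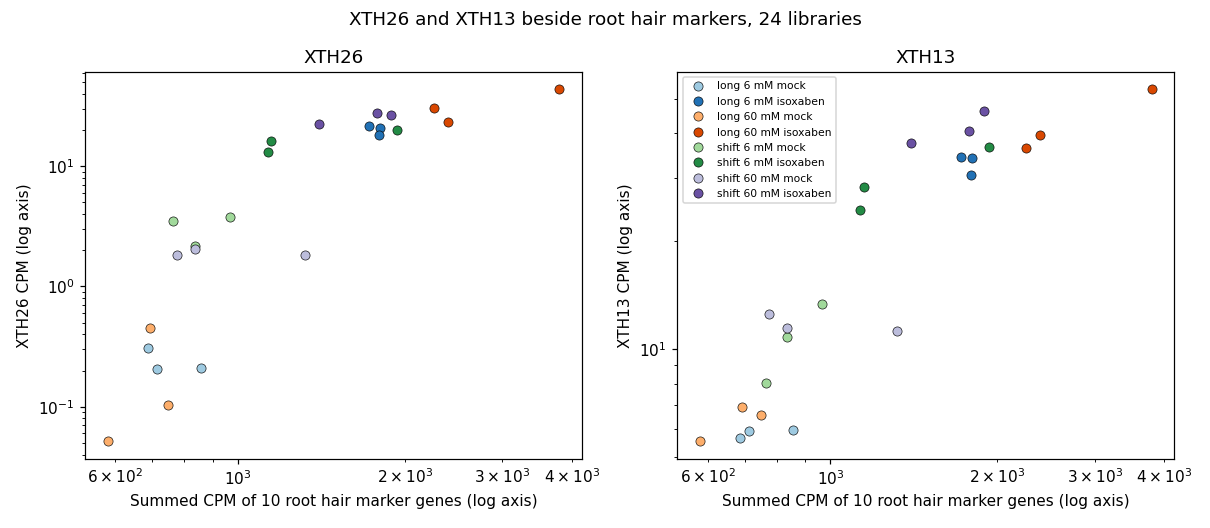
CPM of XTH26 (left) and XTH13 (right, vertical log axes) against the summed CPM of 10 root hair marker genes (horizontal log axis) in the 24 libraries, coloured by group. For both genes the 6 long mock libraries lie lowest, shift mock libraries lie between, and the 12 isoxaben libraries lie highest.

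The regions 250 bases upstream of XTH13 and XTH14 are printed because these genes, on different chromosomes, rose together and share the most extended stretch among the upstream regions of XTH12, XTH13, XTH14 and XTH26. The sequences are from TAIR10.1 (RefSeq), read 5′ to 3′ on the gene's strand, and end 1 base before the annotated gene start. Capitals mark the shared stretch of 39 bases, of which 34 are identical without gaps.
XTH13, chr5:23304096-23304345, minus strand: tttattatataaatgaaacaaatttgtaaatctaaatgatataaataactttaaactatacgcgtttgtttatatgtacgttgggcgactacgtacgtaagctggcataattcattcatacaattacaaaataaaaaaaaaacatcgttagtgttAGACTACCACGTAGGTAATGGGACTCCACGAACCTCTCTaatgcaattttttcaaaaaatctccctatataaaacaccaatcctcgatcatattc
XTH14, chr4:13130041-13130290, plus strand: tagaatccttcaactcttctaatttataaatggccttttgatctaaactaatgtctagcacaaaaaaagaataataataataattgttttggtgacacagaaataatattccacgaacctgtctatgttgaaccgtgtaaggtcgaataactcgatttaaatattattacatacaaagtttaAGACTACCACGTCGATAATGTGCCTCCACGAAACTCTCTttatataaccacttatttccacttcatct
The stretch runs from -95 to -57 in XTH13 and from -68 to -30 in XTH14, counted from the gene start. Shorter ungapped stretches were shared by XTH12 and XTH13 (19 of 20 bases identical), XTH13 and XTH26 (15 of 16), XTH12 and XTH14 (18 of 22), XTH14 and XTH26 (11 of 11) and XTH12 and XTH26 (8 of 8). XTH13 and XTH14 are also 78.7% identical in coding sequence. Other members were not searched in this way. The upstream regions of XTH17 and XTH18, also on different chromosomes, end in an identical run longer than the stretch printed here. A root hair element, searched by its published consensus on both strands, was in 6 of the 10 root hair marker promoters, in 0.747% of 27443 promoters of the same length and in none of the 33 members. With 0.747% of all promoters matching, no match among 33 members is near the background. Whether the consensus was drawn from genes of the marker list was not checked, so no contrast between markers and members is drawn. The motif CGCGTT, known as a rapid stress response element, was upstream of XTH13, XTH18 and XTH20, and of 2.61% of all promoters. TGTCTC was found upstream of 2 members (XTH3 and XTH6; 10.9% of all promoters), CGTGTG of 4 (XTH2, XTH8, XTH23 and XTH25; 5.37%), TTGACC of 4 (XTH2, XTH8, XTH20 and XTH32; 12.2%) and CACGTG of none (6.49%). Matches on either strand counted, and none overlapped another; a match or its absence in this window says nothing of binding.

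The touch gene XTH22 and its relatives XTH23 and XTH24, 80.9% and 74.7% identical to it in coding sequence, also rose. XTH22 (TCH4, AT5G57560) had 1.40, 1.25 and 1.29 CPM in long mock and 6.83, 5.12 and 5.38 in isoxaben at 6 mM (log2FC 2.13, SE 0.20, adjusted p 4.66e-08). At 60 mM it had 2.02, 2.12 and 1.2 and 8.76, 9.96 and 9.30 CPM (log2FC 2.39, SE 0.18, adjusted p 4.58e-11). In shift libraries at 60 mM it went from 1.62, 1.50 and 1.23 to 13.1, 9.43 and 11.3 CPM (log2FC 2.95, SE 0.18, adjusted p 3.97e-12). That 7.72-fold rise was the second largest of any member measured at 1 CPM or more in that comparison, after XTH26. The shift at 6 mM gave 1.62, 1.08 and 1.60 CPM in mock and 2.73, 2.59 and 3.56 in isoxaben (log2FC 1.04, SE 0.21, adjusted p 0.00992); this call was lost without mock replicate 2 or isoxaben replicate 3, within adjusted p of 0.00178 to 0.0981 over alternatives. Unlike XTH26, mock levels of XTH22 lay between 1.08 and 2.12 CPM in all 4 mock groups.

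XTH23 (AT4G25810) rose from 7.35, 6.17 and 6.98 to 25.4, 22.9 and 25.6 CPM under long exposure at 6 mM (log2FC 1.85, SE 0.16, adjusted p 7.56e-08). Values at 60 mM were 8.99, 9.61 and 12.4 and 29.5, 44.0 and 39.7 CPM (log2FC 1.87, SE 0.15, adjusted p 1.29e-09), and after the shift at 60 mM 7.58, 9.60 and 10.9 and 36.8, 28.3 and 36.9 CPM (log2FC 1.86, SE 0.15, adjusted p 5.22e-09). No mock library exceeded 12.4 CPM, and no isoxaben library at 60 mM was below 28.3. With the shift at 6 mM the rise was smaller, from 7.06, 7.33 and 7.50 to 14.0, 13.2 and 17.1 CPM (log2FC 1.02, SE 0.17, adjusted p 0.00162). XTH24 (MERI5, AT4G30270) rose from 8.07, 8.55 and 10.7 to 26.5, 20.0 and 27.0 CPM after the shift at 60 mM (log2FC 1.43, SE 0.19, adjusted p 2.16e-05), and by log2 fold changes of 1.13 and 1.25 under long exposure (adjusted p 0.000718 and 2.59e-05). At 6 mM after the shift, mock (8.85 to 16.1 CPM) and isoxaben (12.5 to 15.3 CPM) overlapped and the call was not made (adjusted p 0.679).

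XTH33 (AT1G10550), whose protein is known to stay at the plasma membrane, was the clade III member that rose. It had 3.88, 3.40 and 2.79 CPM in long mock and 9.95, 8.66 and 11.2 in isoxaben at 6 mM (log2FC 1.57, SE 0.18, adjusted p 1.69e-06), and 4.37, 3.81 and 4.16 and 9.89, 8.58 and 8.67 CPM in the shift groups at 6 mM (log2FC 1.14, SE 0.18, adjusted p 0.000452). Its groups did not overlap at either exposure. At 60 mM the log2 fold changes were 1.40 under long exposure and 0.78 after the shift; the latter call was lost without isoxaben replicate 1 (adjusted p from 0.000186 to 0.0603 over alternatives). XTH20 (AT5G48070), known from wound healing in stems, rose by log2 fold changes of 0.61, 1.2, 0.70 and 0.74 (long at 6 and 60 mM, shift at 6 and 60 mM), with mock between 28.4 and 49.2 CPM and isoxaben between 52.6 and 86.0 CPM over all groups. XTH11 (AT3G48580) was low throughout: at 60 mM it had 0.202, 0.310 and 0.260 CPM in long mock and 1.36, 0.946 and 0.740 in isoxaben (log2FC 1.96, SE 0.43, adjusted p 0.000802). Its isoxaben libraries were all above its mock libraries there; summed counts were 15 and 57, a ratio of 3.95 (95% counting interval 2.21 to 7.52). After the shift at 60 mM the summed counts were 6 and 48 (ratio 7.84, interval 3.35 to 22.4; adjusted p 0.00031).

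**Figure D5:**
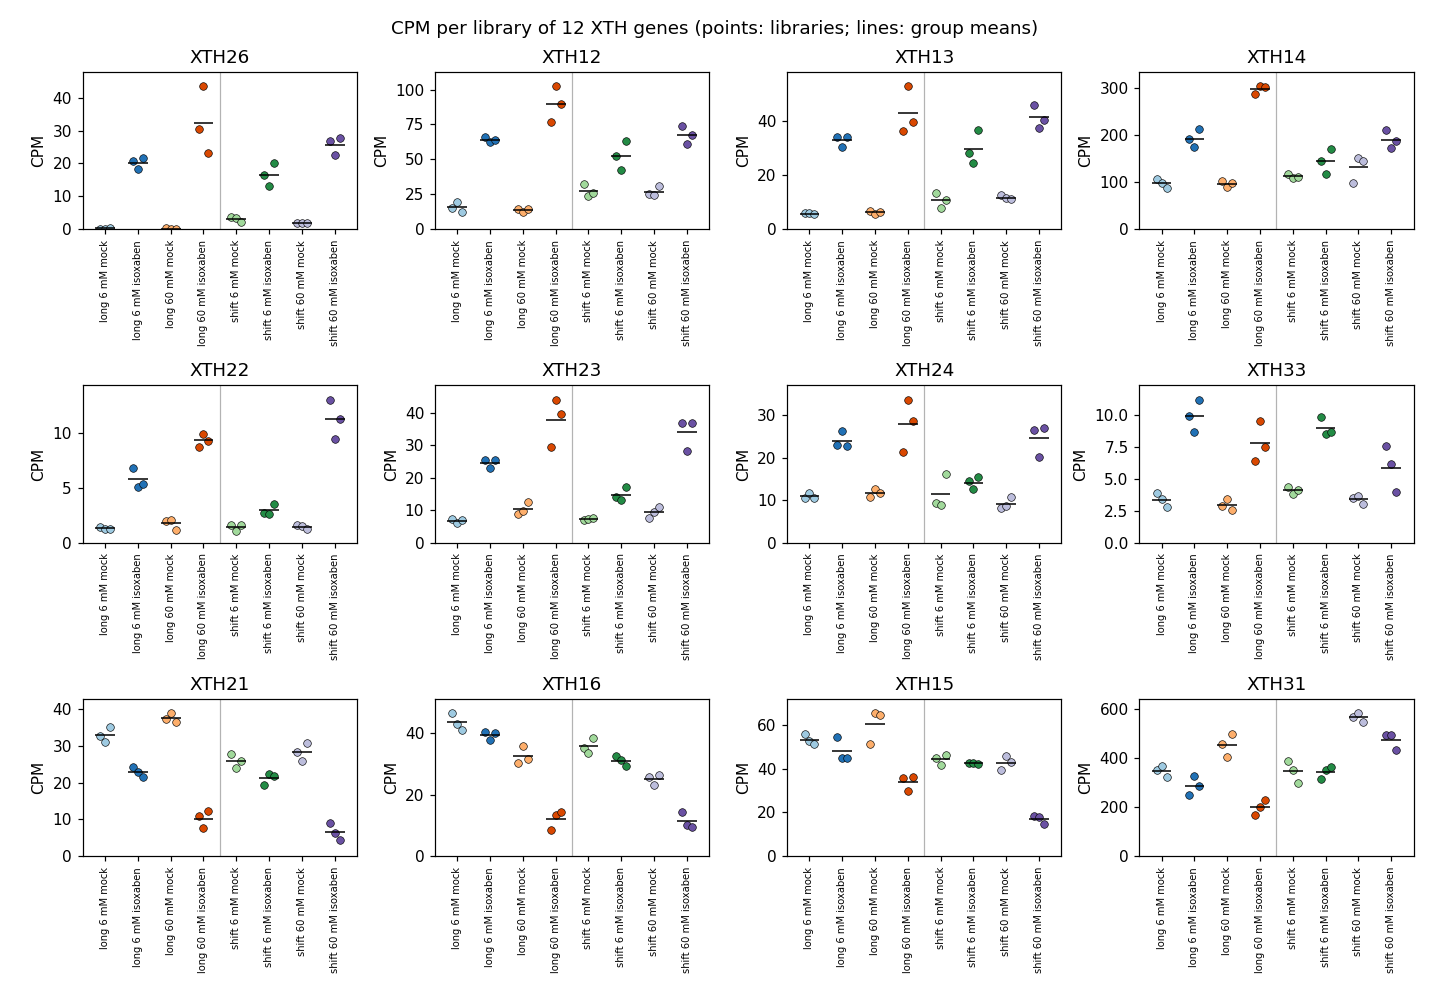
CPM (vertical axes, from 0) of 12 XTH genes in every library, by group (horizontal axes; points are libraries, lines are means of 3). The upper 8 genes are higher in most isoxaben groups, while XTH21, XTH16 and XTH15 are lowest in the isoxaben groups at 60 mM and XTH31 falls below its mock level under long exposure at 60 mM.

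Other clade I and II members fell, mainly at 60 mM. XTH21 (AT2G18800), linked to root growth in Arabidopsis, had 37.3, 38.9 and 36.5 CPM in long mock and 11.0, 7.56 and 12.2 in isoxaben at 60 mM (log2FC -1.87, SE 0.15, adjusted p 1.12e-09). The shift groups at 60 mM had 28.4, 26.0 and 30.8 and 8.97, 6.45 and 4.53 CPM (log2FC -2.10, SE 0.16, adjusted p 1.65e-09). Falls of 3.66-fold and 4.28-fold put all 6 isoxaben libraries under 13 CPM and all 6 mock libraries above 25. At 6 mM the long-exposure fall was smaller, from 30.9 to 35.2 to 21.5 to 24.2 CPM (log2FC -0.52, SE 0.14, adjusted p 0.0223), a call lost without mock replicate 1 or 3 or isoxaben replicate 2 or 3 (adjusted p from 9.81e-05 to 0.115 over alternatives).

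XTH16 and XTH15, which respond to shade in shoots and are 81.7% identical in coding sequence, fell at 60 mM in both exposures. XTH16 (AT3G23730) went from 30.2, 35.8 and 31.6 to 8.44, 13.5 and 14.2 CPM in long libraries (log2 fold change -1.43, adjusted p 2.92e-08) and from 25.6, 23.2 and 26.2 to 14.4, 10.1 and 9.49 CPM in shift libraries (-1.14, 3.11e-06). XTH15 (AT4G14130) went from 51.1, 65.3 and 64.5 to 35.7, 29.7 and 36.2 CPM and from 39.5, 45.5 and 42.8 to 18.4, 17.9 and 14.8 CPM (log2 fold changes -0.83 and -1.32, adjusted p 9.51e-08 and 2.97e-10). For both genes no isoxaben library reached the lowest mock library of its exposure. At 6 mM neither was called; the estimates were -0.15 and -0.14 under long exposure and -0.20 and -0.06 after the shift. XTH8 (AT1G11545) had 100, 112 and 99.7 CPM in shift mock and 62.3, 59.6 and 52.6 in isoxaben at 60 mM (log2FC -0.84, SE 0.07, adjusted p 3.41e-09), and fell by 0.58 on the log2 scale under long exposure (adjusted p 4.73e-07). Its call under long exposure at 6 mM (-0.24, adjusted p 0.0484) was lost in 5 of the 6 fits that left out a library, all but that without mock replicate 2, with another scaling and without the count filter (adjusted p from 0.0169 to 0.33).

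XTH4 (AT2G06850), known from secondary growth of stems, fell by 0.86 and 0.58 on the log2 scale at 60 mM (long and shift; adjusted p 6.06e-07 and 0.000307). XTH5 (AT5G13870) fell by 0.75 after the shift at 60 mM (adjusted p 9.58e-07), from a range of 37.4 to 40.9 to 22.0 to 26.7 CPM. Under long exposure its ranges, 33.8 to 40.5 and 29.8 to 38.7 CPM, overlapped. XTH30 (AT1G32170) was called lower in both (log2 fold changes -0.25 and -0.34). The long call was lost in a fit of the 2 groups alone, with another scaling and in every fit without a library except that without isoxaben replicate 2. The shift call was lost without mock replicate 2 or 3 or isoxaben replicate 2. Their adjusted p ran from 0.00209 to 0.207 and from 0.00754 to 0.136 over alternatives.

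XTH31 (AT3G44990), the root hydrolase-type member linked to aluminium binding of the wall, fell under long exposure at 60 mM. Its values were 458, 405 and 499 CPM in mock and 169, 199 and 228 in isoxaben (-1.19 on the log2 scale, SE 0.11, adjusted p 1.29e-08). At 6 mM they were 351, 367 and 322 and 249, 326 and 287 CPM, and the test was not passed (log2 fold change -0.27, adjusted p 0.2). XTH32 (AT2G36870) fell with it at 60 mM under long exposure, from 7.02 to 7.60 to 2.29 to 4.45 CPM (log2FC -1.09, SE 0.21, adjusted p 0.000278), as did XTH28, known from stamen filaments, by 0.49 on the log2 scale (adjusted p 0.000113). XTH27 was not called in any isoxaben effect, with log2 fold changes from -0.10 to -0.03. In the comparison in which XTH31 fell, 10 of 10 xylem and secondary wall markers were called lower, against 15.8% of all genes, with summed levels of 576 to 639.6 CPM in mock and 302 to 319 in isoxaben. Of 20 photosynthesis genes 9 were called lower there, while 7 had estimates above 0. Their sums were 547, 775 and 658 CPM in mock and 179, 694 and 240 in isoxaben, where replicate 2 lay within the mock range. The part of these tissues in the XTH changes was not tested.

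XTH17, XTH18 and XTH19, close copies known from the root elongation zone, changed by less than 1 on the log2 scale in every isoxaben effect. XTH17 and XTH18 rose under long exposure at 6 mM (log2 fold changes 0.70 and 0.62, adjusted p 0.00325 and 0.00184) and at 60 mM (0.46 and 0.51, adjusted p 0.0148 and 0.00195). The 60 mM call of XTH17 was lost without isoxaben replicate 2 or 3 (adjusted p from 0.00244 to 0.0815). After the shift neither was called. XTH19 at 60 mM had 127, 120.4 and 137 CPM in long mock and 149.7, 152 and 179 in isoxaben (log2 fold change 0.32, adjusted p 0.0427), but 118, 113 and 121 and 109, 80.4 and 72.9 CPM in the shift groups (-0.42, 0.0208). The first call was lost with library totals as scaling, without the count filter and without mock replicate 1 or 2 or isoxaben replicate 2 or 3. The second was lost in a fit of the 2 groups alone and without mock replicate 1 or 3 or isoxaben replicate 2 or 3. Over alternatives their adjusted p ran from 0.0149 to 0.2 and from 0.000125 to 0.133.

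Whether the isoxaben effect depended on KNO3 was tested as an interaction, the effect at 60 mM minus that at 6 mM. Under long exposure 9 members were called, 3 higher and 6 lower, against 11.8% of all genes (5.45% and 6.36%). The smallest adjusted p were those of XTH16 (log2 difference -1.29, SE 0.19, adjusted p 5.1e-05), XTH21 (log2 difference -1.35, SE 0.20, adjusted p 6.89e-05), XTH31 (log2 difference -0.92, SE 0.16, adjusted p 0.000272) and XTH15 (log2 difference -0.69, SE 0.13, adjusted p 0.000726). In shift libraries 10 members were called, 4 higher and 6 lower, against 3.50% of all genes (2.14% and 1.37%). XTH15 (log2 difference -1.26, SE 0.14, adjusted p 3e-06), XTH21 (log2 difference -1.81, SE 0.21, adjusted p 1.97e-05), XTH22 (log2 difference 1.90, SE 0.30, adjusted p 0.000206) and XTH8 (log2 difference -0.67, SE 0.10, adjusted p 0.000253) came first. For XTH15, XTH16 and XTH21 the fall at 60 mM thus exceeded any fall at 6 mM in both exposures. XTH12, XTH13 and XTH26 were not called in either interaction with KNO3; their estimates were 0.70, 0.27 and 0.91 under long exposure and 0.38, 0.35 and 1.37 after the shift (adjusted p at least 0.0535).

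Whether the effect depended on exposure was tested as the long effect minus the shift effect. At 60 mM 9 members were called, 8 higher and 1 lower, against 11.5% of all genes (5.68% and 5.86%). XTH31 was the lower one (log2 difference -0.94, SE 0.16, adjusted p 0.000245). The rise over mock was larger in long exposure for XTH12 (log2 difference 1.41, SE 0.22, adjusted p 0.000272), XTH26 (log2 difference 3.50, SE 0.63, adjusted p 0.000782) and XTH14 (log2 difference 1.08, SE 0.20, adjusted p 0.00095). XTH19 differed as well (log2 difference 0.75, SE 0.17, adjusted p 0.00516). Of the root hair markers 9 of 10 were called higher in this comparison. At 6 mM edgeR called none of them and DESeq2 called 1, while 7 were higher at an unadjusted p under 0.05. At 6 mM 2 members were called, both higher, against 0.263% of all genes (0.175% higher and 0.0876% lower): XTH26 (log2 difference 3.96, SE 0.56, adjusted p 0.00231) and XTH12 (log2 difference 1.09, SE 0.22, adjusted p 0.0461). That of XTH12 remained a call only without long mock replicate 2, shift mock replicate 2 or shift isoxaben replicate 3 among the 12 fits that left out a library and was lost without the count filter and in a fit of the groups compared; its adjusted p ran from 0.000184 to 0.14. The XTH26 differences rest on long mock libraries with 1 to 9 counts, so their size is uncertain. XTH12 and XTH26 were also higher in shift than in long mock at both KNO3 levels, and that difference enters these interactions. Under isoxaben, XTH26 levels overlapped between the exposures at both KNO3 levels. Length of exposure cannot be told apart here from mesh and transfer.

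KNO3 alone changed fewer members than isoxaben did at the same exposure. In long mock, 8 of 27 members differed between KNO3 levels by the test, 5 higher and 3 lower at 60 mM, against a background of 6.77% (2.83% and 3.94%). XTH9 (AT4G03210), a clade I member known from cell elongation and stem growth, had 17.4, 16.9 and 16.4 CPM at 6 mM and 9.70, 9.40 and 10.7 at 60 mM (log2FC -0.77, SE 0.11, adjusted p 3.06e-05). In shift mock, 4 members were called, 2 each way, against 8.20% (3.32% higher and 4.88% lower), and XTH9 had 18.0, 18.0 and 20.0 and 11.8, 9.05 and 11.7 CPM (log2FC -0.79, SE 0.10, adjusted p 1.32e-05). All 6 mock libraries at 60 mM lay below 12 CPM and all 6 at 6 mM above 16. Under isoxaben at 60 mM, XTH9 stood at 20.0, 21.2 and 20.1 CPM after long exposure (log2FC 1.04, SE 0.11, adjusted p 1.13e-08) and at 17.8, 14.9 and 12.6 after the shift (log2FC 0.48, SE 0.11, adjusted p 0.00204).

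XTH31 was higher at 60 mM in mock roots of both exposures. Its log2 fold change was 0.71 in shift mock (SE 0.11, adjusted p 0.000176), where 388, 353 and 297 CPM at 6 mM faced 565, 582 and 547 at 60 mM. In long mock it was 0.39 (adjusted p 0.032), from a range of 322 to 367 to 405 to 499 CPM; that call was lost without 6 mM replicate 1 or 3 or 60 mM replicate 1 or 3 (adjusted p from 0.00229 to 0.165). XTH16 was lower at 60 mM in both, at 35.2, 33.4 and 38.2 and 25.6, 23.2 and 26.2 CPM in shift mock (log2FC -0.51, SE 0.13, adjusted p 0.0138) and at 46.4, 43.0 and 40.9 and 30.2, 35.8 and 31.6 CPM in long mock (log2FC -0.42, SE 0.13, adjusted p 0.0474). The shift call was lost without 6 mM replicate 3 or 60 mM replicate 2. The long call was lost with RLE size factors, without the count filter and with replicate number as a block. It was also lost in 5 of the 6 fits without a library, all but that without 60 mM replicate 2. Its adjusted p ran from 0.000973 to 0.178.

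The other calls of KNO3 were small and depended on single libraries. In long mock XTH23 was at 7.35, 6.17 and 6.98 and 8.99, 9.61 and 12.4 CPM (log2FC 0.60, SE 0.18, adjusted p 0.0406), XTH19 at 86.2 to 110.1 and 120.4 to 137 CPM (log2FC 0.44, SE 0.12, adjusted p 0.0271) and XTH5 at 27.4 to 29.9 and 33.8 to 40.5 CPM (log2FC 0.36, SE 0.09, adjusted p 0.0145). XTH27 (0.22) and XTH28 (-0.33) were also called. The fit without 6 mM replicate 3 called 2 of the 8 members, and the 6 fits without a library called 2 to 5. In shift mock XTH20, at 34.2, 38.4 and 28.4 and 46.8, 38.6 and 49.2 CPM, was called higher (log2FC 0.42, SE 0.13, adjusted p 0.048). This call was lost with another scaling, without the count filter, with replicate number as a block and in a fit of the 2 groups alone. It was also lost without replicate 1 or 3 of either group (adjusted p from 0.0165 to 0.235 over alternatives). Without 6 mM replicate 3 the shift count was 2.

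XTH12, XTH13 and XTH26 were higher in shift than in long mock roots at both KNO3 levels, and XTH14 was not called at either. At 6 mM, 3 members were called, all higher after the shift, against 0.642% of all genes (0.389% higher and 0.253% lower). At 60 mM, 5 were called, 4 higher and 1 lower, against 3.30% (1.46% and 1.85%). None was lower at 6 mM in edgeR or DESeq2, and 3 were at an unadjusted p under 0.05. XTH26, with the values given above, was higher after the shift at 6 mM (log2FC 3.67, SE 0.52, adjusted p 0.00143) and at 60 mM (log2FC 3.17, SE 0.60, adjusted p 0.00488). The long mock libraries held at most 9 counts of XTH26 and the shift mock libraries 37 to 77. XTH12 was higher at 6 mM (log2FC 0.80, SE 0.17, adjusted p 0.0326) and at 60 mM (log2FC 1.00, SE 0.17, adjusted p 0.00227), and XTH13 at 6 mM (log2FC 0.88, SE 0.20, adjusted p 0.0448) and at 60 mM (log2FC 0.89, SE 0.19, adjusted p 0.0119). The values of these genes in the long and shift mock libraries, printed above, did not overlap.

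Some of these calls depended on single libraries. At 6 mM the call of XTH12 was lost without replicate 1 or 3 of either group and in a fit of the 2 groups alone, and that of XTH13 without any library but shift replicate 2. Both were lost without the count filter, and that of XTH13 also with replicate number as a block. Adjusted p ran from 7.1e-05 to 0.198 for XTH12 and from 0.000265 to 0.242 for XTH13. At 60 mM XTH13 was lost without long replicate 2 or shift replicate 1. XTH32 was higher after the shift at 60 mM, at 12.9, 11.5 and 12.1 CPM against 7.02, 7.60 and 7.60 (log2FC 0.71, SE 0.18, adjusted p 0.0269), and was lost in 5 of 6 fits without a library, all but that without shift replicate 2 (adjusted p from 0.000822 to 0.104). XTH15 was lower, at 39.5, 45.5 and 42.8 CPM against 51.1, 65.3 and 64.5 (log2FC -0.50, SE 0.09, adjusted p 0.00234). Without long replicate 2, 3 members were called at 60 mM, and at 6 mM 1 member was called without replicate 1 or 3 of either group. Of the 10 root hair markers none was called at 6 mM by edgeR or DESeq2, and 3 were higher at an unadjusted p under 0.05. At 60 mM 2 were called higher by edgeR and 4 by DESeq2, with the sums given above. Mesh, transfer and any difference in growth or sequencing run between the 2 sets cannot be told apart.

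The rest of the xyloglucan pathway was followed with a list of 19 genes for its synthesis and trimming, all of which were tested. Under long exposure at 60 mM, 13 were called, 12 higher and 1 lower, against the 31.9% of all genes. In long libraries at 6 mM 1 was called, which is 5.26% of the list against 5.69% of all genes and so at the background. In shift libraries 1 was called at 6 mM (background 0.949%) and 6 at 60 mM (12.9%), 3 each way. CSLC12, a glucan synthase of the xyloglucan backbone, was the gene called in all 4: 9.22 ± 1.07 and 21.2 ± 1.47 CPM in long mock and isoxaben at 6 mM (log2FC 1.2, SE 0.12, adjusted p 1.07e-07), and 7.98 ± 0.445 and 37.5 ± 5.10 at 60 mM (log2FC 2.23, SE 0.12, adjusted p 3.56e-14). After the shift its log2 fold changes were 0.50 at 6 mM and 0.71 at 60 mM. The 6 mM shift count fell to 0 without mock replicate 2 or 3 or isoxaben replicate 1 or 3. CSLC12 was also higher in shift than in long mock (0.63 at 6 mM and 0.96 at 60 mM), as XTH12, XTH13 and XTH26 were.

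XYL1, the alpha-xylosidase that trims xyloglucan side chains, rose under long exposure at 60 mM from 325 ± 9.21 to 524 ± 37.3 CPM (log2FC 0.69, SE 0.06, adjusted p 1.12e-09). Another backbone synthase, CSLC4, rose by 0.64 and the xylosyltransferase XXT1 by 0.72 on the log2 scale there. AXY4L, which acetylates xyloglucan, was the gene called lower (log2FC -1.25, SE 0.45, adjusted p 0.0336), at under 1 CPM in those libraries. After the shift at 60 mM CSLC4, CSLC12 and XYL1 rose, while the galactosyltransferases MUR3 (-0.20) and XLT2 (-0.36) and the acetyltransferase AXY4 (-0.36) fell.

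Likeness among members was measured as Pearson's r of mean log2(CPM + 0.5) over the 8 groups, as a description with no test, since the groups share treatments. XTH12 and XTH26 (0.992), XTH13 and XTH26 (0.991), and XTH12 and XTH13 (0.988) were most alike, followed by XTH22 and XTH23 (0.985) and by XTH8 and XTH21 (0.969). XTH25 lies between XTH13 and XTH22 on chromosome 5 and had at most 4 counts in a library, while both neighbours rose. XTH7 and XTH10 were tested and called in none of the 12 comparisons; they stood below 9 CPM in every library, with log2 differences from -0.32 to 0.60 apart from the interactions.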

How the data were processed

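Per the labels' protocols, polyadenylated RNA of roots was sequenced on the DNBSEQ platform. The deposited data are raw counts of reads per gene in the 24 libraries and the same counts divided by the authors by a size factor per library, a normalised signal used here only to check the counts. The submitters' processing notes name STAR 2.7.9a, DESeq2 1.32.0 and the build TAIR10; annotation, strand setting and treatment of multiply matching reads are not given in the sources used here.

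Counts were tested in R 4.3.3 with edgeR 4.0.16 (filterByExpr, TMM scaling, robust quasi-likelihood F test). A single fit of 8 group means over all 24 libraries had 16 residual degrees of freedom and left 20546 genes, with 99.96% of the counts. Fold changes were fitted with a prior count of 0.125, and the SE of their log2 value is the absolute value divided by the square root of F, an approximation. On simulated counts for long exposure at 60 mM with 200 genes changed 2-fold, 170 were recovered with 4 false calls among 20546 genes. The simulation used dispersions from the same fit and changed far fewer genes than the 6548 called in the data. It thus checks the computation and does not give the error rate of these calls. CPM used TMM-adjusted library sizes, and values per kilobase used exon lengths of TAIR10.1. Sequences, positions, 50-base windows and coding identity came from TAIR10.1 (RefSeq), read with Python 3.11.15 and Biopython 1.88; TAIR10.1 may differ in annotation from that used for counting. Figures were drawn with matplotlib 3.10.9.

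In each of the 8 simple comparisons up to 6 called members with the largest change and at least 1 CPM, and in each interaction up to 4 with the smallest adjusted p, are given in full; other members are given where a group of genes is described. The members, the gene lists, the motifs and the rule were chosen with earlier results of these data known. Alternatives were RLE size factors, library totals, no count filter, a fit of the groups compared, a further threshold of 1 on the absolute log2 fold change, DESeq2 1.42.0, a replicate block, and leaving out each library. Shared replicate numbers were checked for pairing by the correlation of deviations from group means.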

Additional observations from a re-analysis of the deposited data

Results flagged for a closer look

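The isoxaben effect of some members differed between conditions by the test of the difference itself, in edgeR with adjustment over 20546 genes. The values are log2 differences between effects. Between KNO3 levels under long exposure (60 mM minus 6 mM) they were -0.54 for XTH4, -0.34 for XTH8, 0.73 for XTH9, 0.63 for XTH14, -0.69 for XTH15, -1.29 for XTH16, 0.59 for XTH20, -1.35 for XTH21 and -0.92 for XTH31. Of these, the calls of XTH14 and XTH20 were lost in 10 and 8 of the 12 fits without a library, and those of XTH8 and XTH4 in 7 and 3.

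Between KNO3 levels after the shift they were -0.58 for XTH5, -0.67 for XTH8, 3.32 for XTH11, -1.26 for XTH15, -0.94 for XTH16, -1.81 for XTH21, 1.90 for XTH22, 0.84 for XTH23, 1.13 for XTH24 and -0.43 for XTH28. The calls of XTH28, XTH23, XTH24 and XTH11 were lost in 10, 9, 6 and 5 of the 12 fits without a library, and XTH11 rests on at most 8 counts in each library of 3 of the 4 groups.

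Between exposures at 6 mM (long minus shift) the differences were 1.09 for XTH12, lost in 9 of 12 fits without a library, and 3.96 for XTH26. At 60 mM they were 0.59 for XTH5, 0.56 for XTH9, 1.41 for XTH12, 0.94 for XTH13, 1.08 for XTH14, 0.49 for XTH15, 0.75 for XTH19, 3.50 for XTH26 and -0.94 for XTH31. XTH9 was lost in a fit of the groups compared, and XTH15 in that fit and in 4 of the 12 without a library. Mock levels of XTH12, XTH13, XTH15 and XTH26 also differed between exposures at 60 mM, and those of XTH12 and XTH26 at 6 mM.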

How the results depend on the processing

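Of 112 calls of members over the 12 comparisons, 46 were kept under every alternative, 30 were lost only when a log2 fold change of 1 or more in size was required, 36 were lost elsewhere, and none reversed; DESeq2 kept all 112. With that size threshold the counts of members called were 7 (long 6 mM), 15 (long 60 mM), 10 (shift 60 mM), 0 for KNO3 in long and in shift mock (edgeR; 1 and 0 with such a size at an unadjusted p under 0.05), 1 for shift against long mock at each KNO3 level, 2 and 5 for the interaction with KNO3 (long and shift) and 3 for that with exposure at 60 mM. Without the count filter, shift against long mock at 6 mM and the exposure interaction at 6 mM each had 1 call, and DESeq2 called 4 in the latter. A fit of the groups compared called 11 for shift against long mock at 60 mM. Leaving out each library gave 11 to 13 (long 6 mM), 20 to 23 (long 60 mM), 6 to 7 (shift 6 mM), 17 to 18 (shift 60 mM), 2 to 5 and 2 to 4 (KNO3, long and shift mock), 1 to 3 and 3 to 6 (shift against long mock, 6 and 60 mM), 5 to 8 and 6 to 10 (KNO3 interaction, long and shift), and 1 to 3 and 8 to 11 (exposure interaction, 6 and 60 mM). The KNO3 interaction count was 5 without isoxaben replicate 1 at 6 mM (long), and 6 without isoxaben replicate 2 at 6 mM, mock replicate 1 or 2 at 60 mM or isoxaben replicate 3 at 60 mM (shift). Shared replicate numbers showed no general pairing of libraries: 5 of 36 same-number pairs had a correlation over 0.1 (range -0.12 to 0.274), and 10 of 24 libraries were most like those of their own number. The same-number pairs of long isoxaben at 6 and 60 mM were all positive, at 0.151, 0.274 and 0.0892 for replicates 1, 2 and 3. With a replicate block the counts, in the order of the ranges above, were 13, 23, 7, 20, 7, 4, 2, 5, 8, 10, 3 and 9. The block changed 5 of the 112 calls: XTH16 (KNO3, long mock), XTH20 (KNO3, shift mock), XTH13 (shift against long mock, 6 mM), and XTH14 and XTH20 (KNO3 interaction, long) were not called with it. Where a call was lost the cause was not tested. Low or absent counts left XTH1, XTH2, XTH3, XTH6, XTH25 and XTH29 untested, and low counts limit the sizes of the XTH26 and XTH11 changes.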
